A study of Mus musculus with 18 samples.

Results

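The chemokines and chemokine receptors of the mouse glomerulus were examined here in sorted cells of Cd2ap mutant and wild type mice. A gene was included when a symbol of its row on the array began with Ccl, Cxcl, Cx3cl, Xcl, Ccr, Cxcr, Cx3cr or Xcr followed by a digit. This gave 58 genes, 38 chemokines and 20 receptors, among 25254 transcript clusters that carry a gene symbol. A transcript cluster is the set of probes that the array design assigns to 1 gene, and for a gene with several clusters the one of highest mean signal was taken. The 58 genes lie on 56 distinct clusters, because Ccl21a, Ccl21b and Ccl21c share 1 cluster and cannot be separated.

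Cd2ap encodes an adaptor protein of the podocyte slit diaphragm, and mice without it develop a glomerular disease with proteinuria. All animals were 5 weeks old, either homozygous for the B6.129X1-Cd2ap tm1Shaw/J allele (Cd2ap-/-) or labelled wild type, with no drug or other treatment named. Each sample was 1 of the 3 major glomerular cell types, collected by FACS through a GFP transgene, which was Tie2-GFP for endothelial cells and Meis1-GFP for mesangial cells. Every group therefore carries a reporter, a different one for each cell type, so reporter and cell type cannot be told apart. There were 3 arrays in each of 6 groups, 18 in all, and the arrays of a group are called A, B and C here. The mesangial control columns of the deposited table bear a mark of 1 plus and 1 minus, unlike the other controls. Their titles and source names read control, whereas the genotype field of the same records reads wildtype, so whether these animals carried 1 mutant allele cannot be settled here and they are called wild type by that field. The series record calls the triplicates biological without saying that each came from a separate mouse, so the p-values measure the spread between these arrays.

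Chemokines are small secreted proteins that draw cells along a gradient by binding G protein coupled receptors, most of which are found on leukocytes. The CC family (Ccl2, Ccl5) mainly attracts monocytes and T cells, whereas CXC members either attract neutrophils through Cxcr2 (Cxcl1), bring in activated T cells through Cxcr3 (Cxcl9, Cxcl10) or guide B cells through Cxcr5 (Cxcl13). Cxcl12 is the broadly used ligand of Cxcr4 and is also bound and cleared by Cxcr7, now named Ackr3, and Cx3cl1 (fractalkine) is a membrane-anchored chemokine of endothelium whose receptor is Cx3cr1. In kidney disease, resident glomerular cells are a known source of such signals, and in development Cxcl12 from podocytes acts on the glomerular endothelium.

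The 250 bases upstream of the annotated start are shown for 4 chemokines that the comparisons below turn on, as RefSeq gives them on build GRCm38.p6, 5′ to 3′ on the strand of the gene. Ccl2, also called below, is not shown because no promoter was found for it. In the first 3 windows shown, capitals mark matches to the core of an interferon-stimulated response element, searched as TTCNNTTTC on both strands, or to the NF-κB consensus. In Cxcl12, which holds neither, capitals mark the GC box GGGCGG or its reverse complement.
Cxcl10, minus strand, chr5:92348890-92349139: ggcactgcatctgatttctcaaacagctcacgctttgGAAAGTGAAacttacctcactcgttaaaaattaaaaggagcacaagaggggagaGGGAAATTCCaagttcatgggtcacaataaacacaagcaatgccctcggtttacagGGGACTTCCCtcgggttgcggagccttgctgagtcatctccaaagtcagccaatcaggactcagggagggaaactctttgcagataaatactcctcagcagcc
Cxcl9, minus strand, chr5:92328080-92328329: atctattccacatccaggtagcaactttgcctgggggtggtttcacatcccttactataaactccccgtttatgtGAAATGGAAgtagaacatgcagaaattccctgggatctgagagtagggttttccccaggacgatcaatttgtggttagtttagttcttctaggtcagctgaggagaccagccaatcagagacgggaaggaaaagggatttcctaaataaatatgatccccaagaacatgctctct
Cxcl1, plus strand, chr5:90890995-90891244: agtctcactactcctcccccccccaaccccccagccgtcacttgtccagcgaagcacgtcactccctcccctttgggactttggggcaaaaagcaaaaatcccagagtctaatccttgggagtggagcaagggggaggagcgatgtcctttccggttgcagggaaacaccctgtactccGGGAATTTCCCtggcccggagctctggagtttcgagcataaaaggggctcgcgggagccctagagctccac
Cxcl12, plus strand, chr6:117168285-117168534: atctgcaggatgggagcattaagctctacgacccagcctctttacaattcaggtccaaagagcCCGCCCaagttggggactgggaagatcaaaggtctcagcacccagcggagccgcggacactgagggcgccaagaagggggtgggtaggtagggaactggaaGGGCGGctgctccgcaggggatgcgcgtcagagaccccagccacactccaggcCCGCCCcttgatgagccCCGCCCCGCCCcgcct

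The Cxcl10 window held 1 interferon element core and 2 NF-κB matches, and the Cxcl9 window held 1 interferon element core. The Cxcl1 window held 2 NF-κB matches that overlap, 1 base apart, so the capitals show them as 1 stretch. The Cxcl12 window held 5 GC boxes, of which the last 2 overlap by 1 base. Of 32851 promoter windows of the same length in the RefSeq table, 7.13% held the interferon element core, 3.9% the NF-κB consensus and 32.74% the GC box. A promoter was found for 42 of the 58 members, with 46 windows in all. Of these genes, 8 held the interferon element core and 8 the NF-κB consensus in at least 1 window. Those are counts of genes, whereas the shares above are of single windows, so they are not directly comparable. These matches describe letters in a window and do not show that a factor binds there.

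In these arrays, 23 of the 58 members reached a signal of 100, the limit the study set for expression, in at least 1 array. The signal is a linear intensity made by RMA, the standard background correction, normalization and summary of probes on this type of array. The other 35 members, or 60.3% of them, stayed below 100 in all 18 arrays, beside 50.1% of the 25254 clusters with a symbol. Among the chemokines 17 of 38 reached the limit, and among the receptors 6 of 20.

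**Figure D1:**
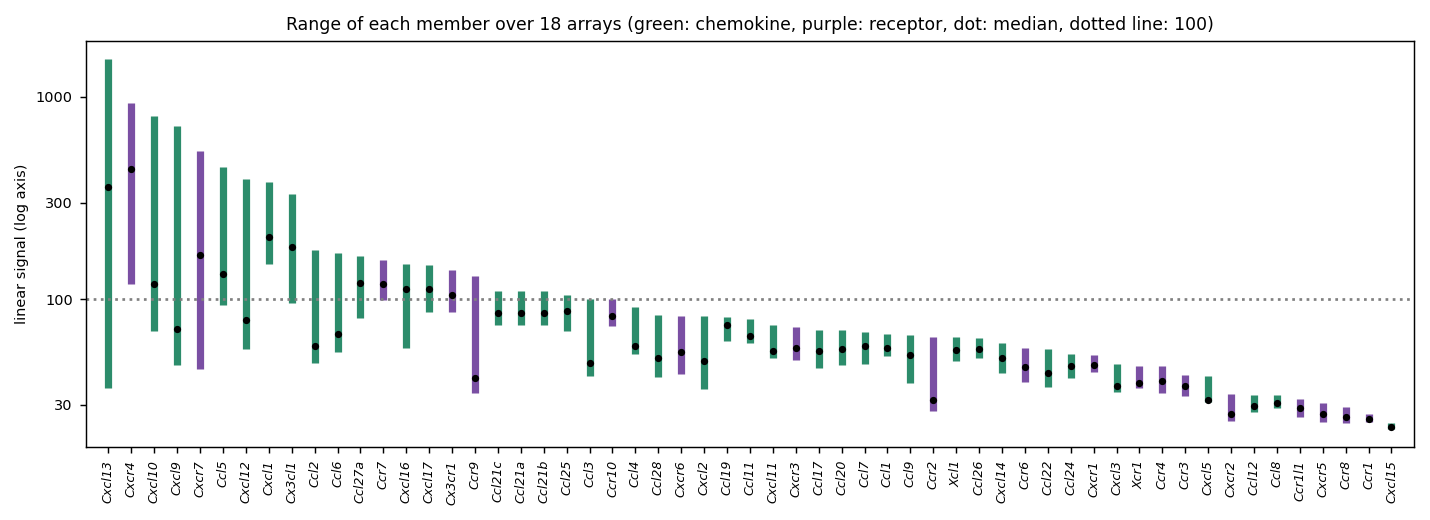
The vertical axis is the linear signal on a log scale and each bar spans the lowest to the highest of the 18 arrays for 1 of the members named in the text, ordered by the highest value. Green bars are chemokines, purple bars receptors, dots medians and the dotted line the limit of 100, and the tallest bar, Cxcl13, reaches 1538.

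The members that reached the limit were the chemokines Ccl2, Ccl3, Ccl5, Ccl6, Ccl21a, Ccl21b, Ccl21c, Ccl25, Ccl27a, Cx3cl1, Cxcl1, Cxcl9, Cxcl10, Cxcl12, Cxcl13, Cxcl16 and Cxcl17 and the receptors Ccr7, Ccr9, Ccr10, Cx3cr1, Cxcr4 and Cxcr7. Only Cxcl1 and Cxcr4 were at 100 or more in all 18 arrays, and 5 members reached 500 in any array: Cxcl13, Cxcr4, Cxcl10, Cxcl9 and Cxcr7. Just inside the limit were Ccr10, with a highest signal of 101, and Ccl3, also with a highest signal of 101. Just outside were Ccl4, at 90.9, and Ccl28, at 83.5.

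The chemokines below the limit in every array were Ccl1, Ccl4, Ccl7, Ccl8, Ccl9, Ccl11, Ccl12, Ccl17, Ccl19, Ccl20, Ccl22, Ccl24, Ccl26, Ccl28, Cxcl2, Cxcl3, Cxcl5, Cxcl11, Cxcl14, Cxcl15 and Xcl1. The receptors below it included Ccr1, Ccr1l1, Ccr2, Ccr3, Ccr4, Ccr6, Ccr8, Cxcr1, Cxcr2, Cxcr3, Cxcr5, Cxcr6 and Xcr1, many of which are known from leukocytes. Their signal is a bound rather than a level, so no fold change is given for them. Ccl4, a monocyte and T cell attractant, read 58.0, 54.6 and 56.1 in wild type and 61.7, 90.9 and 57.5 in mutant mesangial cells. In podocytes Ccl4 read 53.2, 65.4 and 60.7 in wild type and 68.1, 64.2 and 56.9 in mutants, and in endothelial cells 58.8, 57.4 and 63.9 against 64.2, 54.1 and 57.9. Ccl17, a ligand of Ccr4, read 57.6, 45.8 and 47.7 in wild type and 62.6, 56.9 and 70.5 in mutant mesangial cells. Its podocyte values were 48.0, 53.9 and 63.8 in wild type and 53.0, 49.4 and 52.9 in mutants, and its endothelial values 57.6, 49.8 and 58.5 against 70.7, 48.0 and 64.0. The genotypes overlapped for both genes in each cell type.

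For several ligands that were present, the receptor was below the limit in every array. Ccr2, the receptor of Ccl2, had a highest signal of 64.7, Cxcr3, the receptor of Cxcl9 and Cxcl10, of 72.6, Cxcr2, the receptor of Cxcl1, of 33.7, and Cxcr5, the receptor of Cxcl13, of 30.5. Cxcr6, the receptor of Cxcl16, reached at most 82.7. Pairs with both partners at the limit or above in some array included Cxcl12 with Cxcr4 and Cxcr7, and Cx3cl1 with Cx3cr1. They also included Ccl25 with Ccr9, Ccl27a with Ccr10 and the shared Ccl21 cluster with Ccr7, the lymph node homing receptor. In these 3 pairs the highest signals were 105 and 130, 163 and 101, and 109 and 156. Cx3cr1 lay between 86.0 and 139.6 in the 18 arrays, and its genotypes overlapped within each cell type.

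In the RefSeq gene order of chromosome 11, Ccl2 is followed by Ccl7, Ccl11, Ccl12, Ccl8 and Ccl1, and these 5 genes stayed below the limit in every array. On chromosome 5, Cxcl1 lies between Cxcl15 and Cxcl2, which reached at most 24.4 and 82.1. Cxcl9 and Cxcl10 also lie on chromosome 5, with the gene Art3 listed between their starts.

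Before the comparisons, the arrays were examined for the purity of the sorts, since chemokines and their receptors are made by many cells. Each of 8 endothelial, 8 podocyte and 8 mesangial markers was summed in its linear signal, and each list was highest in its own cell type. Wild type mesangial array C stood apart, with a summed podocyte marker signal of 3833 against 900 and 1140 in arrays A and B, and a summed endothelial marker signal of 7678 against 2310 and 2700. The sum of 8 tubule markers was 1111 in that array and 985 in wild type podocyte array B, against 429 to 600.4 in the other 16 arrays. The wild type podocyte arrays held summed endothelial marker signals of 4332 to 5754 against 762 to 2580 in the mutants, and mesangial marker signals of 3225 to 4200 against 1008 to 2857. In mesangial cells the mesangial marker signal was also lower in the mutants, 7781 to 8829 against 10133 to 11464 in wild type. Of 20 leukocyte markers, 13 were below 100 in all 18 arrays, the T cell genes Cd3e and Cd3g and the B cell gene Cd79a among them. Tyrobp, a signalling adaptor of myeloid and NK cells, and Ptprc, the common leukocyte antigen, were highest in mutant mesangial array B, at 1261 and 361, and then in wild type mesangial array C, at 523 and 283. In bulk samples such as these, fewer cells of a type and less RNA per cell cannot be told apart.

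**Figure D2:**
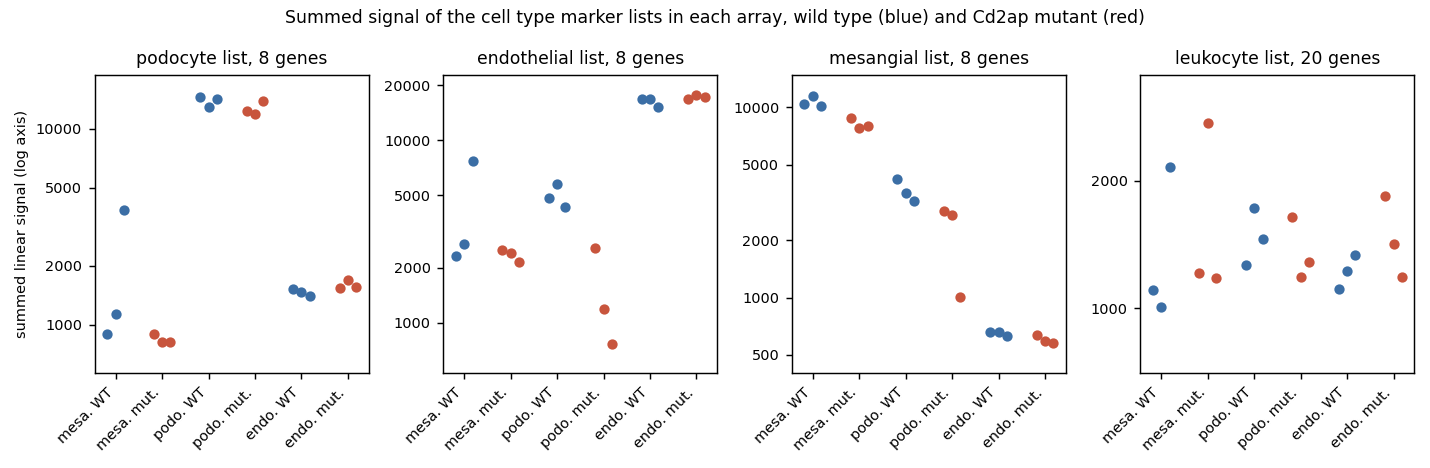
The vertical axes are the summed linear signal of a marker list on a log scale, with 3 arrays per group, mesangial (mesa.), podocyte (podo.) and endothelial (endo.) cells, wild type (WT) in blue and mutant (mut.) in red. Wild type mesangial array C is the outlying blue point in the podocyte and endothelial panels, and mutant mesangial array B has the highest leukocyte sum, 2731.

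The Cd2ap cluster itself did not settle the genotype labels. Its signal was 922, 1037 and 1123 in wild type and 819, 870 and 797 in mutant mesangial cells, and 2108, 1670 and 1546 in wild type against 1512, 1503 and 1478 in mutant podocytes. In endothelial cells it was 840, 859 and 757 in wild type and 891, 966 and 920 in the arrays labelled mutant, which is not lower. Where the probes lie relative to the disrupted part of the gene is not given in the sources used here, and the direction of every genotype comparison below rests on the labels.

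The first comparison asked where the members are found in the normal glomerulus. Cxcl13, the B cell chemokine, was highest in mesangial cells, Cxcl12 and its scavenging receptor Cxcr7 were highest in podocytes, and Cxcr4, the signalling receptor of Cxcl12, was highest in endothelial cells. The 3 wild type groups were compared in pairs with limma, and a member was called at an adjusted p under 0.05 with a fold change over 2. Of 16 members with a signal of 100 in at least 1 of 9 wild type arrays, 4 were called between podocytes and mesangial cells, beside 7.09% of all 12537 clusters tested. Between endothelial and mesangial cells 3 were called, beside 9.16% of all clusters, and between endothelial cells and podocytes 4, beside 10.5%. Without wild type endothelial array A, 5 were called between endothelial and mesangial cells, beside 9.48% of all clusters. Cxcl9 and Cxcl10 then joined as lower in endothelial cells. A member that entered through 1 high cell type had to differ, so these shares are a description.

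Cxcl13 read 1226, 1079 and 1538 in wild type mesangial cells, 399, 317 and 270.0 in podocytes and 54.8, 52.2 and 59.8 in endothelial cells. The 3 cell types did not overlap. Podocytes were lower than mesangial cells by a log2 difference of -1.97 (SE 0.16, adjusted p = 3.2e-05) and endothelial cells by -4.51 (SE 0.16, adjusted p = 7.2e-08), with endothelial cells below podocytes by -2.55 (SE 0.16, adjusted p = 4.2e-06). The endothelial values were under the limit, so both differences from them may be understated. The podocyte arrays also held mesangial markers, Itga8 at 1153, 1152 and 869 beside 2892, 3126 and 2904 in mesangial cells, and their part in the podocyte level of Cxcl13 was not tested.

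Cxcl12 read 204, 166 and 242 in wild type podocytes, 66.0, 62.3 and 82.7 in mesangial cells and 75.1, 63.0 and 59.2 in endothelial cells. All podocyte arrays lay above all others, and mesangial and endothelial cells were both below 100 and overlapped. The log2 difference was 1.53 (SE 0.16, adjusted p = 0.00011) for podocytes minus mesangial cells and -1.62 (SE 0.16, adjusted p = 5.8e-05) for endothelial cells minus podocytes. Since the lower values are at the level of unexpressed probes, these differences understate the change if the gene is silent there. Cxcl12 entered this test only through the podocyte arrays, where it is high, so it was chosen for a difference. With no minimum signal its adjusted p was 0.00051 for podocytes minus mesangial cells and 0.00026 for endothelial cells minus podocytes.

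Cxcr7 read 405, 386 and 430.5 in wild type podocytes, 157, 122 and 173 in mesangial cells and 53.8, 80.1 and 45.2 in endothelial cells, again with no overlap. Podocytes were above mesangial cells by 1.45 on the log2 scale (SE 0.20, adjusted p = 0.0006). Endothelial cells were below mesangial cells, with a log2 difference of -1.36 (SE 0.20, adjusted p = 0.00074), and below podocytes, with -2.81 (SE 0.20, adjusted p = 7.2e-06). Here too the endothelial values were under the limit, and the differences may be understated.

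Cxcr4 read 742, 791 and 930.3 in wild type endothelial cells, 377.3, 509 and 449 in podocytes and 147, 145 and 553 in mesangial cells. Endothelial arrays were the highest throughout, and the single high mesangial value was that of array C, the one with endothelial and leukocyte markers. Endothelial cells exceeded mesangial cells by 1.84 on the log2 scale (SE 0.43, adjusted p = 0.0099), whereas their difference from podocytes, 0.89 (SE 0.43, adjusted p = 0.14), and that of podocytes from mesangial cells, 0.96 (SE 0.43, adjusted p = 0.13), did not pass. Without mesangial array C the endothelial difference from mesangial cells was 2.48 (adjusted p = 1.5e-06). Podocytes then also exceeded mesangial cells in Cxcr4, by 1.60 (adjusted p = 4.6e-05), and in Ccl5, by 1.19 (adjusted p = 0.0059), with 8.33% of all clusters called in that contrast. In the podocyte arrays the endothelial marker Cdh5 read 813, 929 and 696, and its part in their Cxcr4 signal was not tested.

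**Figure D3:**
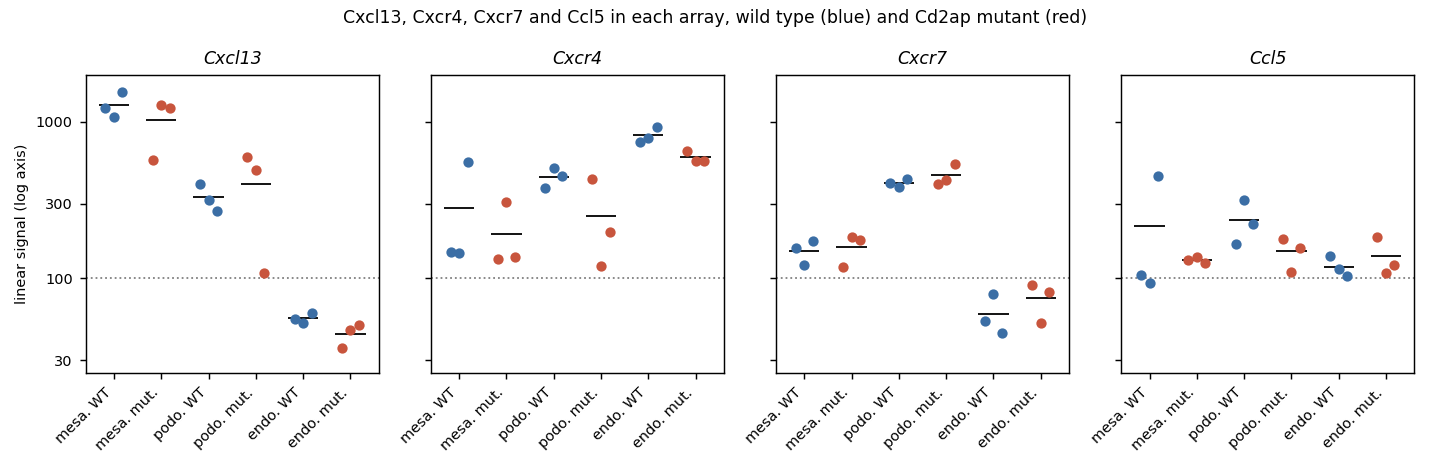
The vertical axis is the linear signal on a log scale, points are the 3 arrays of a group, bars the mean, blue wild type (WT), red mutant (mut.) and the dotted line 100. Cxcl13 is highest in mesangial cells, Cxcr7 in podocytes and Cxcr4 in endothelial cells, and the single high mesangial points of Cxcr4 (553) and Ccl5 (449) are wild type array C.

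Cx3cl1 and Cxcl10 were also called between wild type cell types, neither in all alternatives. Cx3cl1 read 247, 215 and 244 in endothelial cells, 166, 141 and 167 in mesangial cells and 95.4, 121 and 138 in podocytes, with no overlap between the groups, and endothelial cells exceeded podocytes by 1.01 on the log2 scale (SE 0.14, adjusted p = 0.00039). It was under the fold of 2 without wild type endothelial array A or C or wild type podocyte array A, at 0.87 to 0.98. Cxcl10 read 278, 134 and 179 in mesangial cells against 70.4, 76.3 and 85.3 in podocytes, a log2 difference of -1.29 for podocytes minus mesangial cells (SE 0.41, adjusted p = 0.042). The podocyte values were under the limit, so the difference may be understated. Without any 1 of 5 arrays, wild type mesangial A or C or any wild type podocyte array, this call was lost, with adjusted p from 0.065 to 0.13. It was lost too with all arrays and no minimum signal (adjusted p = 0.092) or a trended robust fit (adjusted p = 0.072). Ccl27a, a skin-associated chemokine, was lower in endothelial cells, with 82.3, 93.4 and 98.3 against 137, 143 and 163 in podocytes, but by less than the fold of 2.

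The study's question was what each glomerular cell type does when Cd2ap is missing, so genotypes were compared within each cell type. In mesangial cells the monocyte attractant Ccl2, the interferon-inducible Cxcl10 and fractalkine, Cx3cl1, rose in the mutants. The thresholds of the study were used, a signal of 100, taken here as reached in any of the 6 arrays, an unadjusted p of 0.05 from the moderated test and more than 1.5-fold change, with the Benjamini-Hochberg adjusted p beside it. Of 17 members tested in mesangial cells, 3 were called higher, beside 2.08% of all 11457 clusters, and 0 lower, beside 3.12%. At an adjusted p under 0.05, 1 member was called, Ccl2, beside 2.92% of all clusters, a share that fell to as little as 0.441% without 1 array (wild type B). The share rose to 6.11% where 100 was asked of all 3 arrays of a genotype, again with Ccl2 alone. With a trended robust fit it was 6.36%, with Ccl2 and Cx3cl1. In the same arrays 2 of the 8 mesangial markers lay above 0 and the median log2 fold change of the 8 was -0.38. Itga8 and Pdgfrb were lower in mutants, with log2 fold changes of -0.59 (SE 0.08, adjusted p = 0.024) and -0.58 (SE 0.10, adjusted p = 0.042). Meis1, the gene of the sort reporter, went the other way with 0.39 (SE 0.14, adjusted p = 0.17), as did Fhl2 with 0.32 (SE 0.23, adjusted p = 0.47). The endothelial markers Ehd3, with -0.98 (SE 0.11, adjusted p = 0.012), and Tek, with -1.19 (SE 0.23, adjusted p = 0.0497), were lower too, and the part of these shifts in the called chemokines was not tested. The median log2 fold change of the 17 members was 0.07, beside -0.02 for all clusters.

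Ccl2 read 79.6, 56.2 and 57.4 in wild type mesangial cells and 174, 163 and 147 in mutant mesangial cells. The lowest mutant value was above the highest wild type value, and no wild type array reached 100. The log2 fold change was 1.34 (SE 0.15, adjusted p = 0.013), or 2.53-fold. It is measured against wild type values under the limit, so the change may be understated. Ccl2 entered the test only through the mutant arrays, where it is high, and clusters that enter in this way are chosen for a difference. The screen called it without each array in turn, but the adjusted p was 0.055 to 0.063 without mutant A, mutant B or wild type B. In podocytes Ccl2 read 48.1, 54.4 and 62.7 in wild type and 56.9, 70.4 and 80.3 in mutants, and in endothelial cells 51.7, 57.0 and 61.7 against 59.2, 55.5 and 53.7. In both cell types the genotypes overlapped and no array reached 100.

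In a fit of all 18 arrays the mutation effect on Ccl2 was set against that in the other cell types. Ccl2 entered this fit too only through the 3 mutant mesangial arrays, and the podocyte and endothelial effects are differences between values that were all under the limit, so the p-values below are those of a gene chosen for its difference. The effect was smaller in endothelial than in mesangial cells by a log2 difference of -1.36 (SE 0.21, adjusted p = 0.0049), and smaller in podocytes than in mesangial cells by -1.02 (SE 0.21, adjusted p = 0.039). The first was called without each of the 18 arrays in turn, the second was lost in 12 of the 18 cases, with adjusted p up to 0.11. With no minimum signal, where no gene is chosen by its level, the adjusted p was 0.0095 for the first and 0.062 for the second. Ccl2 was the only 1 of 21 member clusters called in either contrast, beside 1.07% of all 13523 clusters for the first and 0.717% for the second. For endothelial cells minus podocytes 0 members were called with limma, beside 2.11% of all clusters. At an unadjusted p of 0.05, 4 passed in that contrast, and Cxcl1 came nearest, with -0.91 (SE 0.24, adjusted p = 0.058). Without mutant podocyte array A it was called, at -1.11 (adjusted p = 0.0058), and for podocytes minus mesangial cells 3 members were then called, Ccl2, Cx3cl1 and Cxcl12. Over all clusters, however, the calls without that array also rose, to 13.8% for endothelial cells minus podocytes and 3.14% for podocytes minus mesangial cells. The share for endothelial cells minus podocytes also fell, to 0.223% without mutant endothelial A, 0.237% without wild type endothelial C, 0.252% without wild type podocyte A and 0.571% with quantile normalization. Without 1 array it ranged from 0.327% to 3.14% for podocytes minus mesangial cells and from 0.631% to 1.86% for endothelial minus mesangial cells.

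Cxcl10 read 278, 134 and 179 in wild type and 633, 314 and 807 in mutant mesangial cells. The genotypes did not overlap, with a log2 fold change of 1.53 (SE 0.40, adjusted p = 0.095). Cxcl9, which shares the receptor Cxcr3 with it, read 179, 75.9 and 121 in wild type and 233, 112 and 717 in mutant mesangial cells. The genotypes of Cxcl9 overlapped, and its log2 fold change of 1.17 (SE 0.66, adjusted p = 0.36) did not pass the screen, although without mutant array B it did, at 1.79 (adjusted p = 0.23). Without mutant array C, its highest, it was 0.45 (adjusted p = 0.61). Within each genotype the arrays fell in the same order for the pair: C, A and B from the highest in mutants, and A, C and B in wild type.

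In endothelial cells the same 2 chemokines were raised in 1 array of each genotype. Cxcl10 read 214, 71.3 and 69.7 in wild type and 95.7, 191 and 104 in mutant endothelial cells, and Cxcl9 read 217, 49.3 and 55.7 against 51.2, 153 and 71.6. Wild type array A and mutant array B were the high ones for both genes. Irf1, a transcription factor of the interferon response, was also highest in these arrays of their genotype, at 171 and 275. Irf7, another interferon-induced factor, was at 440.4 in mutant array B, the lowest of the mutants, and at 88.3 in wild type array A beside 84.2 and 82.1. In podocytes Cxcl10 read 70.4, 76.3 and 85.3 in wild type and 149, 81.8 and 76.2 in mutants, and Cxcl9 stayed between 47.3 and 69.8. The single podocyte value of Cxcl10 above 100 was that of mutant array A. Without wild type endothelial array A, Cxcl10 passed the screen in endothelial cells.

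Cx3cl1 read 166, 141 and 167 in wild type and 196, 271 and 258 in mutant mesangial cells. The genotypes did not overlap, and the log2 fold change was 0.60 (SE 0.15, adjusted p = 0.081), just past the fold of 1.5 with 1.52-fold. Without mutant array B or C or wild type array B it was under that fold, at 0.51 to 0.55, and also with an offset of 16 added to the signals, at 0.56. Its adjusted p was under 0.05 with all 18 arrays in 1 fit, beside 4.19% of all clusters, and with a trended robust fit, beside 6.36%. In endothelial cells Cx3cl1 was 247, 215 and 244 in wild type and 333, 312 and 256 in mutants, also without overlap, with a log2 fold change of 0.34 (SE 0.12, adjusted p = 0.2) that stayed under the fold. In podocytes it was 95.4, 121 and 138 against 107, 95.7 and 97.5, with overlapping genotypes.

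**Figure D4:**
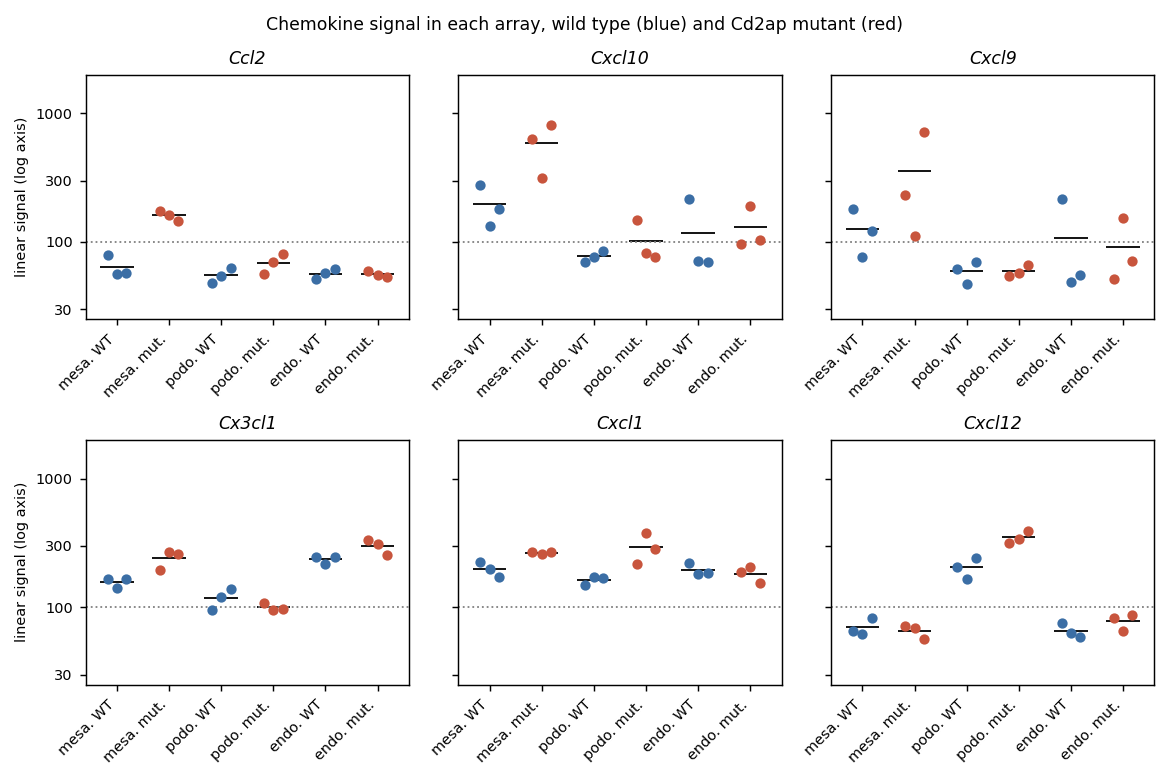
The vertical axis is the linear signal on a log scale for 6 chemokines, points are the 3 arrays of a group, bars the arithmetic mean, blue wild type (WT), red mutant (mut.) and the dotted line 100. Mutant mesangial cells lie above wild type for Ccl2, Cxcl10 and Cx3cl1, mutant podocytes for Cxcl1 and Cxcl12, and Cxcl9 and Cxcl10 are high in 1 endothelial array of each genotype. Mutant mesangial cells also lie above wild type for Cxcl1, and mutant endothelial cells for Cx3cl1, both under the fold of the screen.

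In several other mesangial members 1 array stood far from the rest. Ccr9, a receptor of gut-homing lymphocytes, read 44.9, 130.3 and 43.2 in mutants and between 34.3 and 40.7 in wild type, and Ccl3, a macrophage chemokine, read 55.01, 101 and 46.1 against 41.8, 47.2 and 47.4. The high array of both was mutant B, the one of highest Ptprc and Tyrobp. The genotypes of Ccl3 overlapped, and it passed the screen only without mutant array C, whereas those of Ccr9 did not, and its log2 fold change of 0.75 (SE 0.41, adjusted p = 0.34) passed the screen only where all 18 arrays were fitted together (adjusted p = 0.16). Ccl5, a T cell and monocyte attractant, read 106, 93.3 and 449 in wild type and 131, 136 and 125 in mutants, and the high array was wild type C. Without that array the log2 fold change of Ccl5 turned from -0.33 (SE 0.56, adjusted p = 0.77) to 0.39 (adjusted p = 0.12). Cxcr4 read 147, 145 and 553 in wild type and 134, 309 and 136 in mutants, with the same pair of arrays high, and Ccl6, a myeloid chemokine, was highest in them as well, at 169 and 139.7. The part of the leukocyte and other markers of these 2 arrays in the 5 genes was not tested. Ccl2 and Cxcl10 passed the screen also with both arrays left out, though the adjusted p of Ccl2 was then 0.07, whereas Cx3cl1 was then under the fold and Cxcl9 was called, an alternative chosen after seeing the data.

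Cxcl13 did not pass in mesangial cells. It read 1226, 1079 and 1538 in wild type and 566, 1281 and 1215 in mutants, with overlapping genotypes and a log2 fold change of -0.40 (SE 0.32, adjusted p = 0.51). Without 1 array it ran from -0.61 to -0.02, the latter without mutant array A, the lowest, and without wild type array C it was -0.26. Cxcl1, the neutrophil attractant, read 225, 199 and 172 in wild type and 269.7, 258 and 269.9 in mutant mesangial cells. Its genotypes did not overlap, but the log2 fold change of 0.43 (SE 0.11, adjusted p = 0.099) was under the fold of the screen. Cxcr7 read 157, 122 and 173 in wild type and 117, 184 and 176 in mutants, with overlap, and Cxcl12 stayed below 100 in all 6 mesangial arrays, from 56.5 to 82.7.

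In podocytes 2 chemokines rose in the mutants, Cxcl1 and Cxcl12. A single receptor, Cxcr4, was called lower, where 4.34% of all clusters were. That call was lost in 5 of 6 cases with 1 array left out, so it is given as a call only. Of 16 member clusters tested, 2 were called higher, beside 1.26% of all 12113 clusters, and 1 lower, beside 4.34%. Without mutant array A the share of all clusters lower was 8.61%, and without mutant array C the share higher was 1.91%. With limma 0 of the 16 passed an adjusted p under 0.05, beside 0.0578% of all clusters, while 3 had an unadjusted p under 0.05. That share depended on the fit. Without mutant array A it was 2.88%, with Cxcl1 and Cxcr4 past an adjusted p of 0.05, and with all 18 arrays in 1 fit it was 6.91%, with Cxcl1 and Cxcl12 past it. Without any other array it was at most 0.0167%. The median log2 fold change of the 16 was 0.11, beside -0.04 for all clusters.

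Cxcl12 read 204, 166 and 242 in wild type and 313, 342 and 395 in mutant podocytes. The genotypes did not overlap, and the log2 fold change was 0.79 (SE 0.17, adjusted p = 0.15), or 1.73-fold. In endothelial cells it was 75.1, 63.0 and 59.2 in wild type and 82.6, 65.1 and 86.4 in mutants, all below the limit. Cxcl12 was below the limit in every endothelial and mesangial array. The endothelial and mesangial markers in the podocyte arrays were lower in mutants, and their part in the rise of Cxcl12 was not tested.

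Cxcl1 read 149.8, 173 and 170.0 in wild type and 217, 381 and 281 in mutant podocytes. All mutant arrays lay above the wild type, with a log2 fold change of 0.80 (SE 0.21, adjusted p = 0.19), or 1.74-fold. In endothelial cells Cxcl1 was 220.1, 182 and 185 in wild type and 187, 205 and 155 in mutants, and the genotypes overlapped. Nfkbia, the inhibitor that NF-κB itself induces, also rose in mutant podocytes, from 118, 139 and 123 to 214, 209 and 243, with a log2 fold change of 0.81 (SE 0.13, adjusted p = 0.12).

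Cxcr4 read 377.3, 509 and 449 in wild type and 430.0, 119 and 198 in mutant podocytes. Array A of the mutants lay within the wild type range, and the log2 fold change was -1.03 (SE 0.41, adjusted p = 0.33). The endothelial marker Emcn read 1725, 1979 and 1532 in wild type and 943, 238 and 122 in mutant podocytes, so that mutant array A again had the highest of the mutant values. The part of these markers in the fall of Cxcr4 was not tested. The call was lost without any 1 array other than mutant A, with log2 fold changes from -1.14 to -0.60. With all arrays it was lost too under quantile normalization (-0.94, unadjusted p = 0.058 in limma) and with no minimum signal (unadjusted p = 0.062). Ccrl2, a chemerin-binding receptor related to the chemokine receptors, moved the same way, with 211, 260.4 and 185 in wild type and 137, 106 and 79.0 in mutants (log2 fold change -1.05, SE 0.22, adjusted p = 0.14). In wild type cells Ccrl2 was higher in endothelial cells than in podocytes, by 1.96 on the log2 scale (SE 0.50, adjusted p = 0.011).

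Cxcl13 in podocytes read 399, 317 and 270.0 in wild type and 597, 491 and 109 in mutants. The mutant arrays lay on both sides of the wild type, with a log2 fold change of -0.03 (SE 0.58, adjusted p = 0.98). Mutant array C, the lowest, was also lowest in the mesangial marker Itga8, at 134 against 724 and 472 in mutant arrays A and B. Without it the log2 fold change of Cxcl13 was 0.74 (adjusted p = 0.2) and passed the screen. Cxcr7 read 405, 386 and 430.5 in wild type and 403, 428 and 538 in mutant podocytes, with overlapping genotypes. Ccl5 read 165, 318 and 222 in wild type and 179.7, 110.5 and 157 in mutants, with overlap and a log2 fold change of -0.63 (SE 0.27, adjusted p = 0.35). It passed the screen without mutant array A (-0.78) or wild type array A (-0.86). With all arrays it also passed when 100 was asked of all 3 arrays of a genotype, with a trended robust fit and with array medians subtracted, at -0.67 to -0.63.

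In endothelial cells no member passed the screen. Of 11 tested, 0 were called higher, beside 2.96% of all 11330 clusters, and 0 lower, beside 0.865%, with 0 at an adjusted p under 0.05, beside 1.29%, in the limma fit. The share at an adjusted p under 0.05 ran from 0.438% without wild type C to 2.26% without wild type A, and was 0.474% and 0.552% without mutant A and wild type B. The share lower rose to 1.49% without wild type A and 1.38% without mutant B. At an unadjusted p of 0.05 alone 4 members passed: Cxcl16, Cx3cl1, Cxcl17 and Cxcr4, all under a fold of 1.5. The median log2 fold change of the 11 was 0.00, beside 0.07 for all clusters.

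Cxcr4 read 742, 791 and 930.3 in wild type and 653, 565 and 563 in mutant endothelial cells, which did not overlap, with a log2 fold change of -0.46 (SE 0.12, adjusted p = 0.11). Cxcl16, a membrane-bound chemokine that is also a scavenger receptor, read 96.6, 102 and 76.3 in wild type and 122, 149.6 and 124 in mutants, again without overlap (log2 fold change 0.53, SE 0.14, adjusted p = 0.12). Without wild type array B it was called, at 0.61 (adjusted p = 0.18). Cxcl13 was below the limit in all 6 endothelial arrays, between 36.1 and 59.8, and Cxcr7 likewise, between 45.2 and 90.9. The endothelial signals of Ccl5 were 139.6, 114 and 103 in wild type and 185, 109 and 122 in mutants, with overlap.

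**Figure D5:**
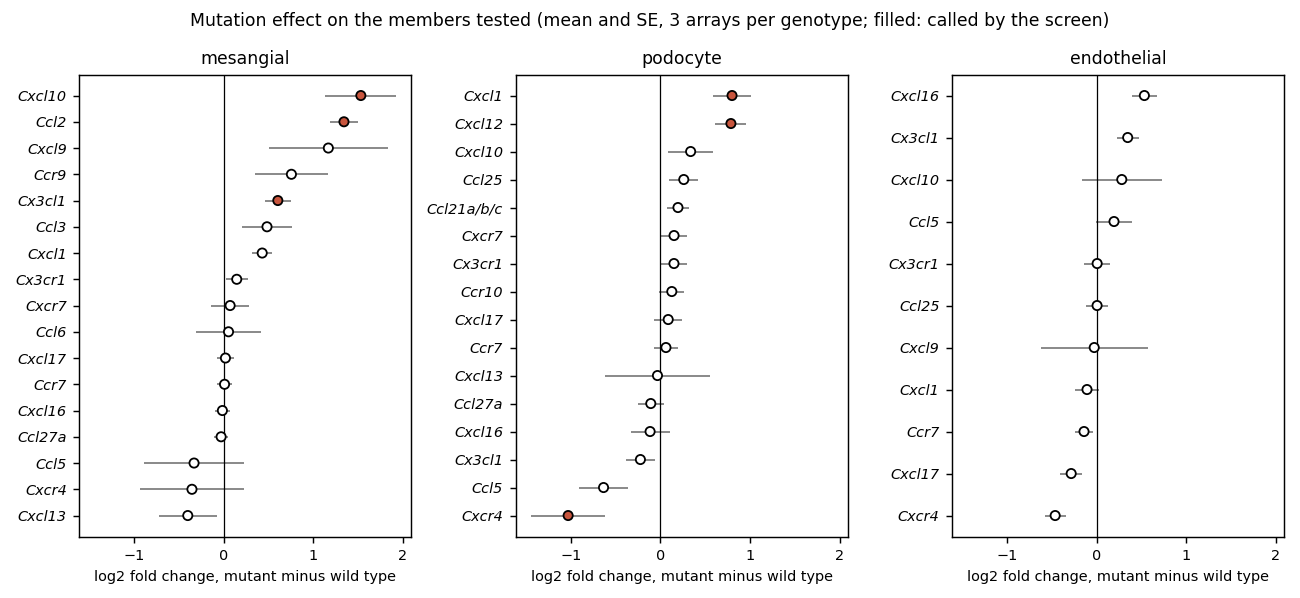
The horizontal axis is the log2 fold change, mutant minus wild type, of each member tested in a cell type, with its SE from 3 arrays per genotype. Filled points passed the screen: 3 in mesangial cells (Cxcl10, Ccl2, Cx3cl1), 3 in podocytes (Cxcl1 and Cxcl12 higher, Cxcr4 lower) and 0 in endothelial cells.

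Genes around the family were read from 3 lists. Of 8 relatives with other names on the array, among them Ccrl2, Cmklr1 and the platelet chemokines Pf4 and Ppbp, 2 were tested in mesangial cells, 2 in podocytes and 4 in endothelial cells. The only call was the lower Ccrl2 in podocytes, where 4.34% of all clusters were called lower, or 8.61% without mutant array A. Of 24 genes of signalling below the receptors, 0 of 15 tested were called in mesangial cells, beside 2.08% of all clusters higher and 3.12% lower. In podocytes 2 of 16 fell and 0 rose, beside 4.34% and 1.26% of all clusters: Rgs2, which limits G protein signalling, with a log2 fold change of -1.10 (SE 0.26, adjusted p = 0.17), and Elmo1, a guide of Rac activation, with -0.67 (SE 0.23, adjusted p = 0.26). Elmo1 was called only with mutant arrays B and C and wild type arrays B and C all in the fit. Rgs2 was also high in mesangial cells, at 1453 to 2791, and the mesangial markers of the podocyte arrays were lower in mutants, whose part in its fall was not tested. In endothelial cells 1 of 13 fell, beside 0.865% of all clusters, and that was Dpp4, the peptidase that inactivates Cxcl12 and Cxcl10, with -1.28 (SE 0.35, adjusted p = 0.13). Dpp4 was 2817 to 3472 in the podocyte arrays. The summed podocyte marker signal of the endothelial arrays was 1536 to 1699 in mutants and 1410 to 1528 in wild type, the opposite direction to Dpp4. Of the 8 podocyte markers, 1 to 3 reached 100 in an endothelial array. The part of these markers in the Dpp4 signal was not tested.

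Of 19 inducers and regulators of chemokine transcription, 17 were tested in each cell type. Over all clusters 2.08% rose and 3.12% fell in mesangial cells, 1.26% and 4.34% in podocytes and 2.96% and 0.865% in endothelial cells. In mesangial cells 2 rose and 0 fell: Ifngr1, a chain of the interferon gamma receptor, from 498, 513 and 558 to 870.3, 812 and 704 (log2 fold change 0.60, SE 0.11, adjusted p = 0.04), and Il1r1, the interleukin 1 receptor, from 344, 382 and 317 to 540.4, 575 and 571 (0.70, SE 0.10, adjusted p = 0.023). Without 1 array the adjusted p of Ifngr1 was 0.05 to 0.14 and it was under the fold without mutant A, mutant B or wild type A, while that of Il1r1 was under 0.05 only without wild type C. Stat3 was past an adjusted p of 0.05 but under the fold, with 0.49 (SE 0.09, adjusted p = 0.042), and not so without any 1 array. In podocytes 2 rose, among them Nfkbia as given above, and 1 fell, Ifngr1, from 846, 797 and 908 to 411, 473 and 448 (-0.94, SE 0.12, adjusted p = 0.1). In endothelial cells 3 rose and 0 fell, with Irf7 and Irf1 among those that rose. Irf7 went from 88.3, 84.2 and 82.1 to 522, 440.4 and 480.1, a log2 fold change of 2.50 (SE 0.10, adjusted p = 7.5e-05). Its wild type values were under the limit, so the change may be understated, and it entered the test only through the mutant arrays, where it is high. With no minimum signal its adjusted p was 0.00053. Irf1 went from 171, 148 and 136 to 215, 275 and 205 (0.60, SE 0.14, adjusted p = 0.092). Irf1 was under the fold without mutant B or wild type C. In the same endothelial arrays Cxcl10 and Cxcl9, whose upstream windows above hold an interferon element core, overlapped between the genotypes.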

How the data were processed

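RNA of FACS-sorted glomerular cells was amplified with a single-round Ribo-SPIA protocol and hybridised to Affymetrix Mouse Gene 1.0 ST arrays. The authors deposited intensity values on a linear scale, made by RMA per the sample records, for 18 arrays, and the file header names annotation for mouse build mm9. The series record names Exon arrays and GeneBASE instead, which the header and methods do not. The table's 18 normalized columns were not used, and the RNA-seq was not analysed here. Columns were assigned to groups by name, and letters A to C follow column order only.

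Log2 signals were fitted with lmFit and eBayes (limma 3.58.1, R 4.3.3), by genotype within each cell type over clusters at 100 or more in at least 1 of 6 arrays. Wild type cell types (9 arrays) and differences of mutation effects (18 arrays) were fitted likewise. P-values were adjusted over all clusters tested (Benjamini-Hochberg). An exact test of 3 against 3 arrays cannot go below 0.1. Every member reaching 100 is named. Single arrays are given for members called between genotypes, at 500 or more, or named in the paper, and also for others where an array stood apart, chosen after their values were seen. Alternatives were other filters, normalizations, an offset of 16, a trended robust fit, 1 fit of 18 arrays, means over clusters and left-out arrays. Scripts were tested on simulated data. Members and lists were chosen with earlier results of these data known. Promoters came from RefSeq (GRCm38.p6), and older symbols were used for receptors since renamed. The number of arrays limits the precision. A few items of the lists and labels are not reported here.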

Additional observations from a re-analysis of the deposited data

Results flagged for a closer look

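Ccl2 was the member with a called difference of mutation effects between cell types. Its mutation effect in endothelial cells minus that in mesangial cells was -1.36 on the log2 scale (SE 0.21, adjusted p = 0.0049), and in podocytes minus mesangial cells -1.02 (SE 0.21, adjusted p = 0.039). Mutant mesangial cells were the only group with Ccl2 above 100, in 3 of 3 arrays. The other groups lay between 48.1 and 80.3, so the podocyte and endothelial effects were measured between values that were all below the limit. Ccl2 entered the fit only through these 3 arrays, so it was chosen for this difference. With no minimum signal the adjusted p was 0.0095 for endothelial cells and 0.062 for podocytes.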

How the results depend on the processing

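Over 31 genotype fold changes under the alternatives, 395 of 442 values kept their direction and side of the screen, 31 no longer passed, 10 newly passed and 6 reversed. With an adjusted p under 0.05 in place of the screen, 1 member was called in mesangial cells and 0 in podocytes. By the screen with array medians subtracted, 1 member passed in endothelial cells (Cxcl16), beside 4.37% of all clusters. At an adjusted p under 0.05, 0 did there, beside 2.4%. Without 1 array, members called ranged from 2 to 3 in mesangial cells, 2 to 4 in podocytes and 0 to 1 in endothelial cells. Over all clusters the share called then ran from 4.76% to 5.82%, 4.79% to 10.3% and 3.28% to 4.96%, in the same order. Between wild type cell types the members called ranged from 3 to 5 (podocyte minus mesangial), 3 to 5 (endothelial minus mesangial) and 3 to 4 (endothelial minus podocyte). There the shares over all clusters ran from 6.47% to 8.33%, 8.71% to 10.2% and 10.1% to 10.8%. The Ccl2 difference between podocytes and mesangial cells was called in 0 members without a minimum signal (adjusted p = 0.062), with a trended robust fit (0.051) and with wild type mesangial C and mutant mesangial B both left out (0.13). Without 1 array the members called in that contrast ranged from 0 to 3, with adjusted p from 0.01 to 0.11 for Ccl2, in endothelial minus mesangial cells it stayed at 1, and in endothelial minus podocyte cells it ranged from 0 to 1. Over all clusters these shares ran from 0.327% to 3.14%, 0.631% to 1.86% and 0.223% to 13.8%, in the same order. The limit of 50 left 13 members below it in all 18 arrays.

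Cx3cl1 in mesangial cells was under the fold with an offset of 16 (0.56), Cxcr4 in podocytes missed the screen with quantile normalization (-0.94) and with no minimum signal, and Cxcl2, under 100 in every array, passed it in mesangial cells with no minimum signal. Ccl2 rose by 1.25 to 1.503 in mesangial cells without 1 array, against wild type values under the limit, and Cxcl10 by 1.24 to 1.92. Both passed the screen each time, as Cxcl1 (0.59 to 1.00) and Cxcl12 (0.65 to 0.92) did in podocytes. Cxcl9 in mesangial cells ranged from 0.45 to 1.79 and Cxcl13 there from -0.61 to -0.02. Cxcr4 in podocytes ranged from -1.52 to -0.60 and lost its call in 5 of 6 cases. Ccl5 in mesangial cells ranged from -0.74 to 0.39, reversed without wild type C, and was 0.36 without that array and mutant B. Cxcr4 in mesangial cells ranged from -0.75 to 0.28, reversed without wild type C. Cxcl13 in podocytes ranged from -0.49 to 0.74, reversed without mutant C or wild type A (0.12), and was 0.0072 with quantile normalization. The cause was not tested. Values below 100 are bounds, so no fold change is given for the 35 members that stay there. No paired analysis was possible because the columns carry no shared replicate numbers.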
